A study of Mus musculus with 6 samples.

Results

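The regions described here are all PPARγ regions of the longer deposited lists of macrophages and adipocytes. Each cell type also has a shorter final list. The macrophage list held 18470 regions. Of these, 342 lay outside the 19 autosomes and 84 others overlapped an interval masked for input bias, which left 18044 regions. The adipocyte list held 12430 regions, and the 12165 on autosomes were used, none of them masked. Together they make 30209 of the 192831 regions in all lists of the series. A macrophage region that overlapped an adipocyte region by at least 1 bp was called shared, and all others macrophage-only or adipocyte-only. The choice used positions alone, and neither the authors' peak values nor the other proteins mapped. Width enters the choice, since a wider region can meet another more easily, and width rose with peak height, from a median of 156 bp at height 5 or 6 to 406.5 bp at 15 and above.

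PPARγ is a nuclear receptor that binds DNA as a partner of RXR and responds to fatty acids and to thiazolidinedione drugs. In fat cells it is the central regulator of differentiation and of lipid storage genes, and in macrophages it acts on lipid handling and inflammatory genes. PU.1 is an ETS-family factor that shapes the enhancers of myeloid cells. C/EBPβ is a leucine-zipper factor of both lineages, acting early in fat cell differentiation and in activated macrophages. Acetylation of histone H3 at lysine 9 (H3K9Ace) marks active promoters and enhancers.

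The macrophages were primary cells of male C57BL/6 mice, elicited with 1 ml of 3% thioglycollate in the peritoneum, taken 3 days later and kept for 24 h of adherence, which makes them elicited rather than resident cells. Cells of 4 or more animals were pooled for each run, and 2 runs were joined for macrophage PPARγ. The adipocytes were 3T3-L1 preadipocytes differentiated in culture, a single mouse cell line, and no ligand or other treatment of either cell type is given in the labels. Each of the 6 libraries stands alone in its group: PPARγ in both cell types, H3K9Ace in both, and PU.1 and C/EBPβ in macrophages. There were therefore no biological replicates, and every interval and test below counts regions of these lists as independent. They compare the lists, not replicated cells. The regions were not joined to genes here, so the cell types were not checked against marker genes. Sequencing depth is unknown. The longer adipocyte list is described as joining 3 datasets and the labels give 1 run for this library, so what was joined is unclear.

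Most PPARγ regions of each longer list did not overlap a region of the other. From the macrophage side 1474 of 18044 regions were shared, 8.17% (95% Wilson interval 7.78 to 8.58), which left 16570 macrophage-only regions. From the adipocyte side 1305 of 12165 were shared, 10.7% (10.2 to 11.3), which left 10860 adipocyte-only regions. The adipocyte regions cover 10.7 Mb, 0.436% of the autosomal span, and the macrophage regions 4.60 Mb. The shared part was not set against shifted or random positions. The intervals cover counting error only.

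Where the lists met, the macrophage region mostly lay inside the wider adipocyte region. The lists met in 1478 pairs, and in 1043 of them (70.6%, 68.2 to 72.8) it did so wholly. The centres were a median of 123 bp apart, and 964 pairs (65.2%) had centres within 200 bp. The adipocyte regions are wider, with a median of 899 bp against 213 bp, and 141 of them met 2 macrophage regions and 15 met 3 or more. Shared macrophage regions were wider than macrophage-only ones, with medians of 297 bp and 208 bp. From the narrowest to the widest quartile of macrophage regions the shared part was 3.37%, 4.99%, 8.63% and 15.8%. At like height the shared part rose from the narrowest to the widest quartile among the weakest regions. It went from 2.56% (2.01 to 3.25) to 6.62% (4.62 to 9.40) at height 5 or 6. At height 7 it went from 3.15% (2.40 to 4.13) to 7.21% (6.00 to 8.63). At height 8 the quartiles gave 6.70%, 4.10%, 7.74% and 8.62%, and from 9 to 14 18.3%, 13.1%, 16.1% and 19.8%. In both, the intervals of the narrowest and widest quartile overlap, but the narrowest held only 358 and 82 regions. The intervals of the quartile above the narrowest and of the widest were apart in both. They were 2.94 to 5.71 against 6.83 to 10.8 at height 8, and 10.4 to 16.3 against 17.7 to 22.2 from 9 to 14. At a peak height of 15 or more, where the narrowest quartile held 1 region, the upper 3 quartiles gave 45.2%, 39.4% and 42.9%, with overlapping intervals.

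Sharing rose with the strength of the macrophage peak. Peak height is the authors' value in whole units, with no scaling for depth stated, and ran from 5 to 67 with a median of 7. Of the 4277 regions of height 5 or 6, 148 were shared, 3.46% (2.95 to 4.05). At height 7 the share was 4.74% (4.29 to 5.24), at height 8 it was 6.78% (5.90 to 7.79), and from 9 to 14 it was 17.4% (15.9 to 18.9). At 15 and above 342 of 806 regions were shared, 42.4% (39.1 to 45.9). Each step lies outside the interval of the step before it, and the rise is steepest above height 8. The weaker regions make up most of the list but hold fewer of its shared regions than the stronger ones. The 14757 regions below height 9 contain 701 shared regions, while the 3287 at or above it contain 773.

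**Figure D1:**
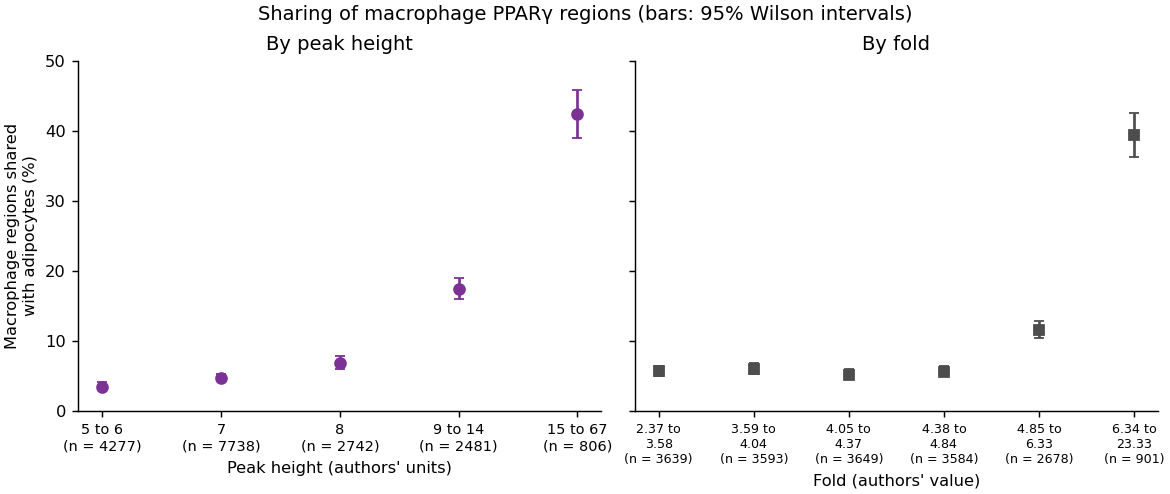
Share of macrophage PPARγ regions that overlap an adipocyte region (%, vertical axis) by the authors' peak height (left) and fold (right), with 95% Wilson intervals and the number of regions in each bin. The share climbs from 3.46% to 42.4% with height, and with fold it stays between 5.15% and 6.01% until a fold of 4.84 before it reaches 39.4%.

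Fold, the authors' enrichment over an unnamed control, separated shared from macrophage-only regions less finely. In the lowest 4 of 6 fold bins, from 2.37 to 4.84, the shared part stayed between 5.15% and 6.01%. It was 11.5% (10.4 to 12.8) from 4.85 to 6.33 and 39.4% (36.3 to 42.6) above that, where the median height was 18. By the authors' false discovery rate per region, the shared part was highest at the lowest rates. At the lowest rate, 0.24%, 671 of 2840 regions were shared (23.6%), at the next, 0.68%, 13.6% were, and at the highest, 9.67%, 3.40% (2.21 to 5.20). Regions that the final macrophage list kept were shared in 549 of 1924 cases (28.5%), against 925 of 16120 cases (5.74%) among those it dropped, an odds ratio of 6.56 (exact 95% interval 5.81 to 7.40, exact Fisher test, p = 2.89e-181). By number, most shared regions were thus ones that the final list does not contain. The final list held no region below height 9, but 1154 of 2481 from 9 to 14 and 770 of 806 at 15 and above. Its contrast is therefore not separate from the rise with height.

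A small set of tall regions did not follow this rise. Among the 806 regions of height 15 or more, 36 had a fold below 5, and 2 of these were shared, 5.56% (1.54 to 18.1). Of the other 770, 340 were shared, 44.2% (40.7 to 47.7). Their median heights were 19.5 and 20, but 28 of the 36 carried neither PU.1 nor C/EBPβ, against 74 of the 770. PU.1 lay at 13.9% of the former and 73.5% of the latter, and adipocyte H3K9Ace at 8.33% and 43.2%. This split was made after the values were seen, and leaving out the 36 regions changed no call of the class tests.

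Macrophage PU.1 and C/EBPβ were most frequent where PPARγ was shared and least frequent where adipocytes alone had PPARγ. Of all macrophage regions of the list, 31.1% overlapped PU.1 and 26.6% C/EBPβ, and of all adipocyte regions 13.1% and 14.2% did. PU.1 lay at 679 of 1474 shared regions, 46.1% (43.5 to 48.6), at 4939 of 16570 macrophage-only regions, 29.8% (29.1 to 30.5), and at 875 of 10860 adipocyte-only regions, 8.06% (7.56 to 8.58). C/EBPβ lay at 795 shared regions, 53.9% (51.4 to 56.5), at 4002 macrophage-only regions, 24.2% (23.5 to 24.8), and at 933 adipocyte-only regions, 8.59% (8.08 to 9.13). C/EBPβ was thus more frequent than PU.1 at shared regions and less frequent at macrophage-only regions. The PU.1 list is longer, with 45485 autosomal regions over 12.4 Mb against 24024 over 7.34 Mb for C/EBPβ. The part of this in comparisons between the factors was not tested.

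The contrast of shared over macrophage-only regions gave an odds ratio of 2.01 for PU.1 (1.80 to 2.24, exact Fisher test, adjusted p = 5.92e-36 over 12 class tests). For C/EBPβ it was 3.68 (3.29 to 4.10, exact Fisher test, adjusted p = 5.85e-120). Against adipocyte-only regions, shared regions had odds 9.75 times higher for PU.1 (8.59 to 11.0) and 12.5 times higher for C/EBPβ (11.0 to 14.1). These ratios rose to 18.4 and 24.4 with the final adipocyte list, and that of PU.1 to 20.7 where the region's centre had to lie inside the PU.1 region. The final adipocyte regions are narrower, with a median of 260 bp against 899 bp in the longer list. The part of width in the rise with the final adipocyte list was not tested. Macrophage-only regions exceeded adipocyte-only regions as well, with odds ratios of 4.85 for PU.1 (4.49 to 5.24) and 3.39 for C/EBPβ (3.14 to 3.66, exact Fisher test, adjusted p = 8.13e-256). With the region's centre inside the factor's region they were 9.92 for PU.1 and 4.85 for C/EBPβ. All 12 class tests passed the threshold of 0.05, but the PU.1 result for shared over macrophage-only regions did not hold at matched strength. Within bins of peak height its common odds ratio was 1.01 (0.899 to 1.14, Mantel-Haenszel), and within quartiles of width 1.30 (1.16 to 1.45). That of C/EBPβ was 1.98 (1.76 to 2.24) within the height bins and 2.46 (2.19 to 2.76) within the width quartiles.

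**Figure D2:**
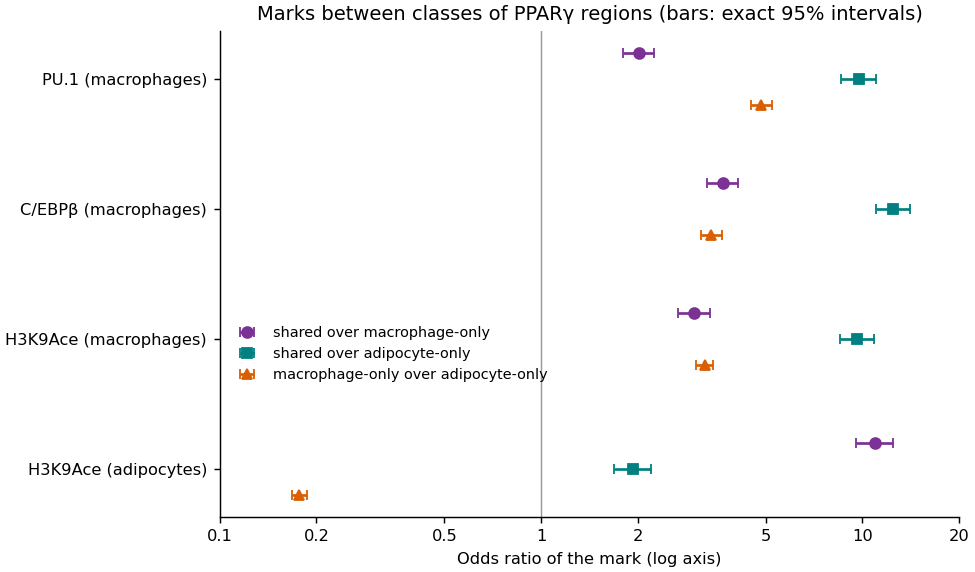
Odds ratios (log axis) of each mark between the classes of PPARγ regions, with exact 95% intervals; the grey line is at 1. Adipocyte H3K9Ace is the mark with the highest ratio of shared over macrophage-only regions, 10.9, and the only mark of the 4 with a ratio below 1 for macrophage-only over adipocyte-only, 0.177.

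Shared regions were measured in macrophage coordinates, which are narrower than the adipocyte-only regions. In adipocyte coordinates they carried PU.1 in 55.2% and C/EBPβ in 60.7% of 1305 cases, higher still.

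The macrophage factors also met PPARγ in different combinations. Both lay at 488 shared regions (33.1%, 30.8 to 35.6), C/EBPβ alone at 307 (20.8%), PU.1 alone at 191 (13.0%) and neither at 488. Macrophage-only regions had both in 2937 cases (17.7%), PU.1 alone in 2002 (12.1%) and C/EBPβ alone in 1065 (6.43%), and 10566 (63.8%, 63.0 to 64.5) had neither. Pooled over peak height, PU.1 alone was about as frequent in either class, while C/EBPβ alone was not. By height, shared regions had PU.1 alone more often at 5 or 6 (10.1% against 7.34%) and at 7 (15.8% against 11.7%). They had it less often at 8 (9.68% against 15.3%), from 9 to 14 (14.4% against 16.6%) and at 15 and above (11.1% against 22.8%). The intervals of these shares were apart only at 15 and above, and the differences were not tested. Adipocyte-only regions lacked both factors in 9443 cases, 87.0%.

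**Figure D3:**
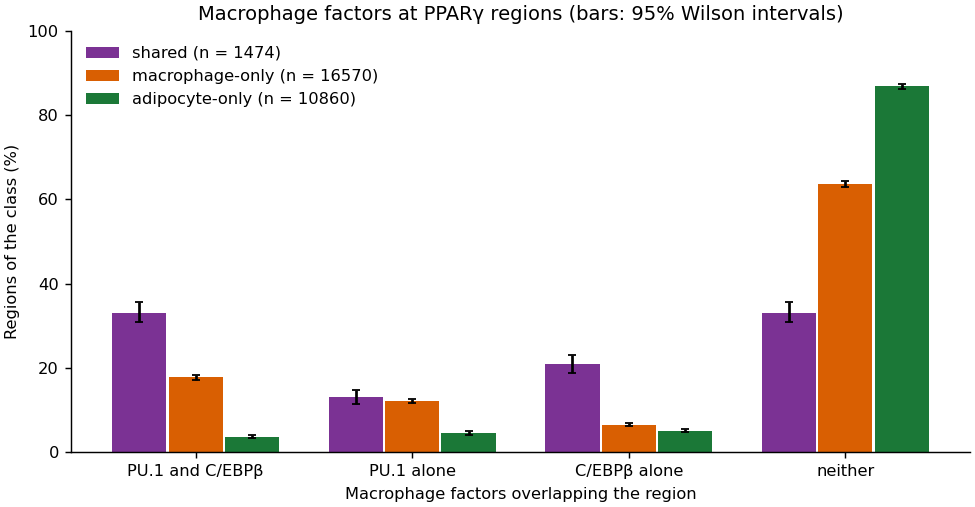
Share of each class of PPARγ regions (%, vertical axis) with both macrophage factors, a single factor or neither, with 95% Wilson intervals. C/EBPβ alone lies at 20.8% of shared, 6.43% of macrophage-only and 4.99% of adipocyte-only regions, and neither factor at 33.1%, 63.8% and 87.0%.

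Seen from the factors, a macrophage PPARγ region with C/EBPβ alone was shared in 307 of 1372 cases, 22.4% (20.2 to 24.7). With both factors 488 of 3425 were shared, 14.2% (13.1 to 15.5), with PU.1 alone 191 of 2193, 8.71% (7.60 to 9.96), and with neither 488 of 11054, 4.41% (4.05 to 4.81). The odds of being shared were 3.02 times higher with C/EBPβ alone than with PU.1 alone (2.47 to 3.69, exact Fisher test, adjusted p = 9.77e-29). They were 2.91 times higher within bins of peak height (2.37 to 3.57). They were also 1.73 times higher with C/EBPβ alone than with both factors (1.47 to 2.04, exact Fisher test, adjusted p = 5.79e-11), and 2.24 times within the height bins. These contrasts were chosen after the shares were seen, with adjustment over 5 tests.

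The relation of PU.1 to sharing turned around along the range of peak height. At height 7, PU.1 lay at 132 of 367 shared regions (36.0%) and at 1820 of 7371 macrophage-only regions (24.7%), an odds ratio of 1.71 (1.36 to 2.14, exact Fisher test, adjusted p = 6.78e-06 over 20 tests). At height 8 the shares were 39.2% and 37.6%, with an odds ratio of 1.07 (0.780 to 1.47, exact Fisher test, adjusted p = 0.639). From 9 to 14 shared regions had less PU.1, 52.7% against 58.8%, with an odds ratio of 0.780 (0.630 to 0.967, exact Fisher test, adjusted p = 0.0234). At 15 and above 219 of 342 shared regions had it (64.0%), against 352 of 464 macrophage-only regions (75.9%), an odds ratio of 0.567 (0.412 to 0.779, exact Fisher test, adjusted p = 0.000407). At height 5 or 6 the interval of the ratio, 1.37, reached from 0.864 to 2.10. A Breslow-Day chi-square test of a common ratio over the 5 bins gave p = 5e-09. PU.1 was more frequent in taller regions of both classes, from 18.9% to 64.0% and from 14.6% to 75.9%.

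C/EBPβ favoured shared regions in each of the 5 bins. Its share rose from 19.6% at height 5 or 6 to 76.9% at 15 and above in shared regions, and from 11.2% to 64.0% in macrophage-only regions. The odds ratio was 1.93 in the lowest bin (1.22 to 2.95), 2.78 at height 7 (2.22 to 3.47), 2.46 at height 8 (1.80 to 3.36), 1.43 from 9 to 14 (1.15 to 1.77) and 1.87 at 15 and above (1.35 to 2.60). The exact Fisher tests of the 5 bins passed the threshold, with an adjusted p = 0.00416 in the lowest bin as the weakest. The tests by bin were added after seeing the data.

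**Figure D4:**
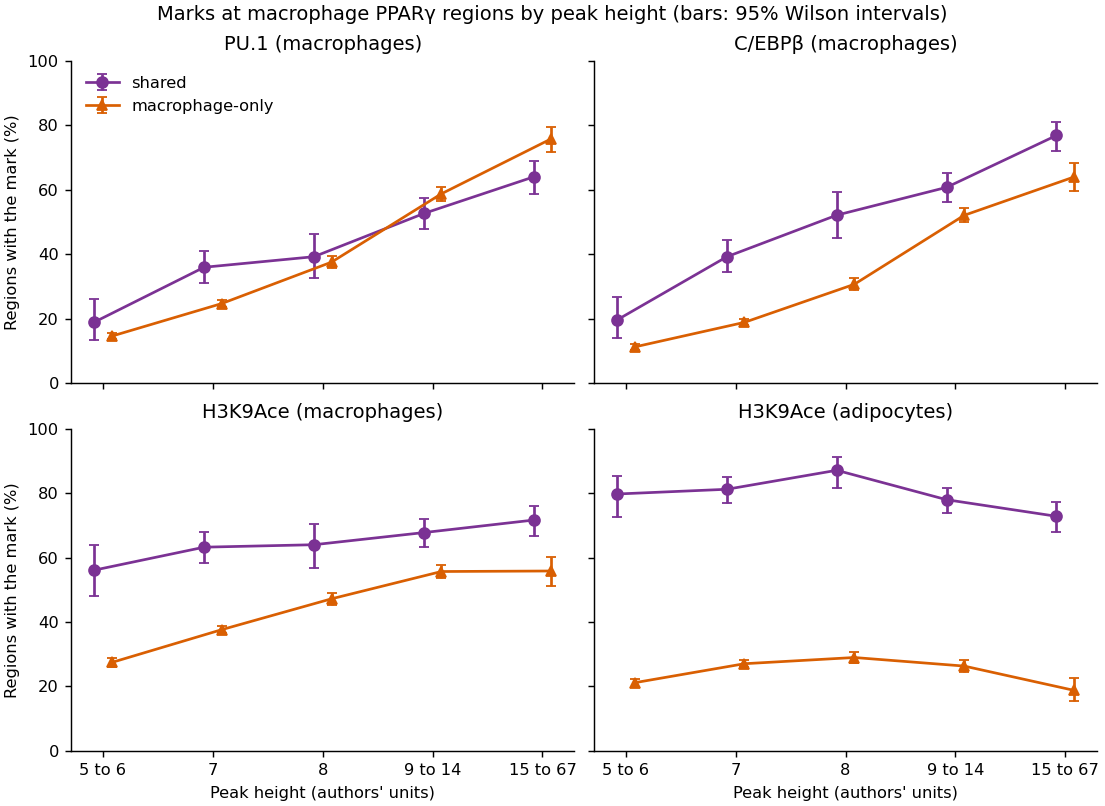
Share of shared (circles) and macrophage-only (triangles) PPARγ regions that carry each mark (%, vertical axis) by the authors' peak height, with 95% Wilson intervals. The PU.1 lines cross, from 36.0% against 24.7% at height 7 to 64.0% against 75.9% at 15 and above, while the adipocyte H3K9Ace lines stay apart at every height.

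Of the 4 marks, adipocyte acetylation had the highest odds ratio of shared over macrophage-only regions and the lowest of shared over adipocyte-only regions. Of all macrophage regions of the list, 29.9% overlapped adipocyte and 41.5% macrophage H3K9Ace, and of all adipocyte regions 67.4% and 22.2% did. Adipocyte H3K9Ace lay at 1163 of 1474 shared regions, 78.9% (76.7 to 80.9), and at 4230 of 16570 macrophage-only regions, 25.5% (24.9 to 26.2), an odds ratio of 10.9 (9.57 to 12.5), with an exact Fisher p too small for double precision. Adipocyte-only regions had it in 7166 of 10860 cases, 66.0% (65.1 to 66.9), less often than shared regions (odds ratio 1.93, 1.69 to 2.21, exact Fisher test, adjusted p = 1.18e-24). This ratio was lower with the final lists, 1.37 (1.12 to 1.67) with that of macrophages and 1.36 (1.002 to 1.88) with that of adipocytes. Among adipocyte regions overlapping a final region, 85.6% (81.9 to 88.7) of shared and 82.4% (80.7 to 83.9) of adipocyte-only ones had adipocyte H3K9Ace. These intervals overlap. Weak shared regions were no less acetylated in adipocytes than strong ones. The share was 79.7% at height 5 or 6, 81.2% at 7, 87.1% at 8, 78.0% from 9 to 14 and 72.8% at 15 and above. Within the height bins the common odds ratio against macrophage-only regions was 11.9 (10.3 to 13.7).

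Macrophage H3K9Ace lay at 971 shared regions, 65.9% (63.4 to 68.3), at 6509 macrophage-only regions, 39.3% (38.5 to 40.03), and at 1814 adipocyte-only regions, 16.7% (16.0 to 17.4). The odds ratio of shared over macrophage-only regions was 2.98 (2.66 to 3.34, exact Fisher test, adjusted p = 2.64e-86). It was 2.23 (1.98 to 2.51, Mantel-Haenszel) within bins of peak height and 2.20 (1.96 to 2.47) within quartiles of width. It fell to 1.09 (0.959 to 1.24, Mantel-Haenszel) among regions of like adipocyte acetylation, a stratum added after seeing the data. Macrophage-only regions gained macrophage acetylation with height, from 27.4% at 5 or 6 to 55.8% at 15 and above. Their adipocyte acetylation rose from 21.1% (19.9 to 22.4) at 5 or 6 to 27.0% at 7 and 29.0% (27.2 to 30.7) at 8, and was 26.3% from 9 to 14 and 18.75% (15.5 to 22.6) at 15 and above.

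By state, 864 shared regions were acetylated in both cell types (58.6%), 299 in adipocytes alone (20.3%), 107 in macrophages alone (7.26%) and 204 in neither. Macrophage-only regions were acetylated in macrophages alone in 3360 cases (20.3%), in both in 3149 (19.0%), in adipocytes alone in 1081 (6.52%) and in neither in 8980 (54.2%). Of adipocyte-only regions, 5464 (50.3%) were acetylated in adipocytes alone, 1702 (15.7%) in both and 112 (1.03%) in macrophages alone. The macrophage share minus the adipocyte share was 13.8 percentage points at macrophage-only regions, -49.3 at adipocyte-only regions and -13.0 at shared regions. The adipocyte H3K9Ace list covers more autosomal sequence, 98.7 Mb against 52.3 Mb, and the part of this in the negative differences was not tested.

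In each list, sharing was higher where the other cell type had acetylation. Macrophage PPARγ regions acetylated in both cell types were shared in 864 of 4013 cases, 21.5% (20.3 to 22.8), and those acetylated in adipocytes alone in 299 of 1380, 21.7% (19.6 to 23.9). Of those acetylated in macrophages alone 107 of 3467 were shared, 3.09% (2.56 to 3.72), and of those acetylated in neither 204 of 9184, 2.22% (1.94 to 2.54). The odds ratio between both and adipocytes alone was 0.992 (0.853 to 1.16, exact Fisher test, adjusted p = 0.909), and within height bins 0.799 (0.680 to 0.939). That between macrophages alone and neither was 1.40 (1.10 to 1.79, exact Fisher test, adjusted p = 0.00843), and within height bins 0.836 (0.652 to 1.07). Adipocyte PPARγ regions acetylated in both cell types were shared in 802 of 2504 cases, 32.0% (30.2 to 33.9), and those acetylated in macrophages alone in 84 cases, 42.9% (36.1 to 49.9). Of those acetylated in adipocytes alone 236 of 5700 were shared, 4.14% (3.65 to 4.69), and of those acetylated in neither 183 of 3765, 4.86% (4.22 to 5.59).

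Acetylation and factors combined gave the widest range of sharing. The highest share was at regions with C/EBPβ alone and acetylation in adipocytes alone, 59 of 117, 50.4% (41.5 to 59.3). The lowest was at regions with neither factor and no acetylation, 80 of 6987, 1.14% (0.921 to 1.42). In each of the 4 acetylation states the share was higher with C/EBPβ alone than with PU.1 alone: 36.0% against 19.9% where both cell types were acetylated, 50.4% against 22.3%, 6.76% against 2.09% and 11.3% against 2.90%. Among regions of height 9 or more the same order held, with 64.5% against 40.8%, 76.7% against 34.3%, 12.1% against 6.29% and 25.6% against 7.83%, though the intervals of the third pair overlap. At height 9 or more, the states without adipocyte acetylation were shared in 6.29% to 25.6% of regions, and those with it in 34.3% to 76.7%. With both factors and macrophage acetylation alone, 40 of 579 such regions were shared, 6.91% (5.11 to 9.27).

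**Figure D5:**
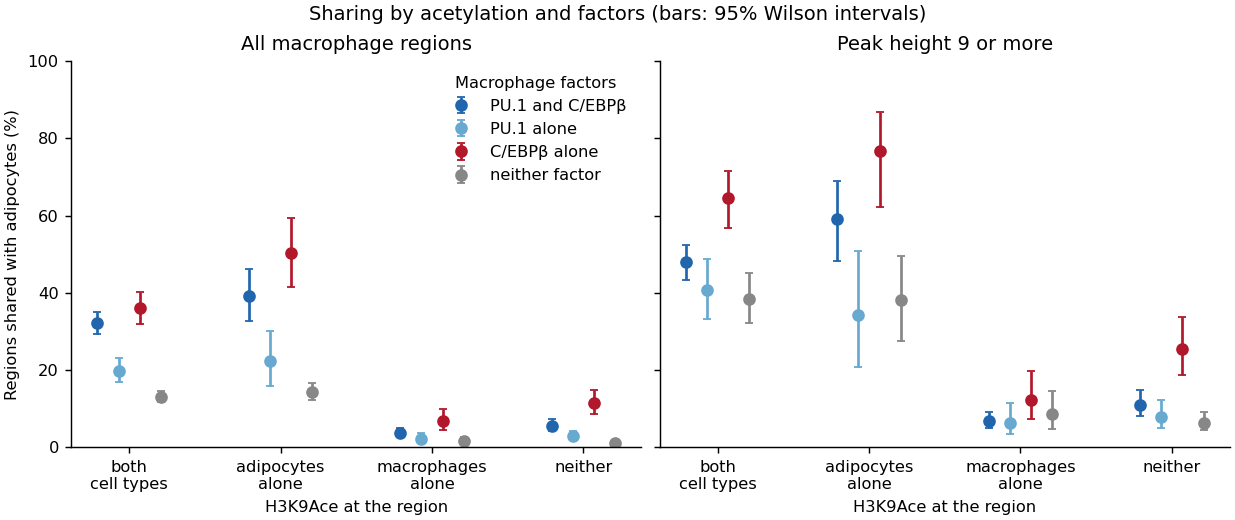
Share of macrophage PPARγ regions that overlap an adipocyte region (%, vertical axis) by the cell types with H3K9Ace at the region and by the macrophage factors there, for all regions (left) and for peak height 9 or more (right), with 95% Wilson intervals. C/EBPβ alone gives the highest value in every acetylation state, up to 50.4% on the left and 76.7% on the right.

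The adipocyte list carries no peak values, so its regions were split by width and by the final adipocyte list. Of its regions, 2527 overlapped a region of the final list, called holding it here, and 411 of these were shared, 16.3% (14.9 to 17.8). Of the other 9638, 894 were shared, 9.28% (8.71 to 9.87), an odds ratio of 1.90 (1.67 to 2.16, exact Fisher test, p = 5.27e-22). Sharing by width was 8.53%, 8.80%, 11.0% and 14.7% from the narrowest to the widest quartile. The widest quartile also held a final region in 42.5% of cases, against 14.7% in the narrowest, and was acetylated in adipocytes in 88.5% against 53.5%.

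Adipocyte regions that carried both macrophage factors were mostly shared, 535 of 926, 57.8% (54.6 to 60.9). With C/EBPβ alone 257 of 799 were (32.2%), with PU.1 alone 186 of 670 (27.8%), and with neither 327 of 9770, 3.35% (3.01 to 3.72). Among adipocyte-only regions, those holding a final region were acetylated in adipocytes more often than the rest, 82.4% (80.7 to 83.9) against 62.0% (61.0 to 63.0). PU.1 was about as frequent in both, at 7.33% and 8.23%.

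The named regions show these classes at single positions, in build mm8 and as deposited. The tallest shared regions, apart from chromosome 18, lay at chr12:86274439-86275334 (height 63, fold 18.65), chr4:86142942-86143703 (62, 14.55), chr17:30765137-30765874 (59, 15.1) and chr3:51297632-51298033 (58, 20.37). All 4 carried PU.1 and C/EBPβ, and those on chromosomes 12 and 17 were acetylated in both cell types. The region on chromosome 4 was acetylated in macrophages alone, and that on chromosome 3 in neither.

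Of the 4 tallest macrophage-only regions, those at chr7:25414434-25414876 (height 55, fold 12.77) and chr10:66600257-66600642 (54, 20.3) carried both factors. The taller regions at chr17:36092642-36093098 (67, 4.12) and chr10:7229365-7229673 (60, 3.88) carried neither factor and were acetylated in macrophages alone. These are among the tall regions of low fold, and they also lead the macrophage-only regions that the final list dropped. The next 4 of that group had heights from 28 to 40 and folds from 2.49 to 4.6, at chr5:146565158-146565635, chr5:105167663-105168970, chr9:13368495-13368886 and chr16:10888378-10888983. None of the 4 carried PU.1, C/EBPβ or macrophage acetylation.

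The named shared regions that the final list dropped were lower than the macrophage-only ones once past the tallest. That one, at chr6:3151387-3151635, had a height of 42, a fold of 2.83 and none of the 4 marks. The next 5 had heights of 14 or 15 and folds from 4.03 to 4.95, and each carried C/EBPβ. They lay at chr10:120891634-120892269 and chr10:95888910-95889425, chr5:101100965-101101492, chr2:121855475-121856072 and chr17:47811739-47812360. PU.1 was at 4 of them, all but that on chromosome 5, and adipocyte H3K9Ace at 4, all but the first named. The named regions of the classes were not matched in height. Of all regions that the final list dropped, 44.0% of 925 shared and 21.2% of 15195 macrophage-only ones carried C/EBPβ. For PU.1 the shares were 37.9% and 26.5%.

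The widest adipocyte regions were acetylated in adipocytes in both classes. The 4 widest adipocyte-only regions, at chr17:55701940-55705303, chr6:5457683-5460889, chr8:42511118-42514290 and chr8:10926046-10929158, were 3112 to 3363 bp wide, and none carried PU.1 or C/EBPβ. Of the 4 widest shared ones, those at chr17:33385303-33389395 (4092 bp) and chr4:32897874-32900868 (2994 bp) carried both factors. The one at chr6:138103879-138106926 (3047 bp) carried C/EBPβ alone, and that at chr19:4557296-4560138 (2842 bp) neither.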

How the data were processed

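Per the labels' protocols, reads of 36 bp were mapped to mm8 with ELAND, allowing 2 mismatches and keeping unique best matches. The macrophage list came from the caller GLITR, per the deposited output, with settings and control not given in the sources used here. The deposited fold is a ratio, the peak height a signal in whole units and the false discovery rate a percent, all as the authors gave them. The other lists give positions alone. How the 3 adipocyte datasets were joined is not stated in the sources used here. The 20 repeated rows of adipocyte H3K9Ace were counted once.

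Overlaps, Wilson intervals, Mantel-Haenszel ratios and exact Fisher tests (2-sided, with the sample odds ratio and an exact 95% interval) were computed in Python 3.11.15 with scipy 1.17.1 and statsmodels 0.14.6, after a check on simulated data. Adjusted p-values are Benjamini-Hochberg. Height and fold bins were cut at the 20, 40, 60, 80 and 95% points, with ties kept together. Named regions are the tallest (6 dropped by the final list and 4 overall per class) or the widest (4 per class), without chromosome 18. The members, classes and tests were chosen with earlier results of these data known. Gene names, gene lists and sequences were not used, since the reference tables are of another build (GRCm38). Depth is unknown, so intervals cover counting error only.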

Additional observations from a re-analysis of the deposited data

How the results depend on the processing

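Of 131 odds ratios under the alternatives, 126 kept their side of 1 and their call, and 23 moved by over 1.5 times. The exceptions were 4 values of PU.1 and 1 of macrophage H3K9Ace, all for shared over macrophage-only regions. PU.1 turned, past the threshold, to 0.751 with the final macrophage list and 0.838 at peak height 9 or more. It missed the threshold at 0.896 (0.792 to 1.01) within cells of height and width (added after seeing the data) and at 1.01 within height bins. Macrophage H3K9Ace missed it at 1.09 within strata of adipocyte H3K9Ace (added likewise). The matching C/EBPβ ratio ranged from 1.77 within cells of height and width to 4.85 with the final adipocyte list. Macrophage-only over adipocyte-only reached 16.3 for PU.1 and 10.2 for C/EBPβ with the final macrophage list, and was 5.34 for macrophage H3K9Ace at height 9 or more and 0.0951 for adipocyte H3K9Ace with the final adipocyte list. The cause of these moves was not tested.

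The shared part of macrophage regions was 28.5% with the final macrophage list, 2.10% with the final adipocyte list, 23.5% at height 9 or more, 7.56% with an overlap of 50% of the shorter region and 7.65% with centres within 500 bp. From the adipocyte side it was 4.39%, 14.2%, 6.02% and 10.2% under the first 4 of these. The rise of sharing from the lowest to the highest height bin was 35.5 points with all chromosomes, and 33.8 points by fold.

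The macrophage minus adipocyte H3K9Ace difference at shared regions was -2.73 points (-6.84 to 1.38, an interval that holds 0) with the final macrophage list, -20.6 with the final adipocyte list and -6.21 at height 9 or more. At macrophage-only regions it was 32.8, 12.3 and 30.8, and 12.03 with the centre inside the acetylated region. At adipocyte-only regions it was -47.2, -69.0, -47.8 and -47.5. Depth is unknown, and its effect on the weak regions was not measured.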

Other observations

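Of the macrophage-only regions, 638 (3.85%, 3.57 to 4.15) had an adipocyte PPARγ region within 1 kb, 3520 (21.2%) within 10 kb and 11736 (70.8%) within 100 kb, with a median gap of 43.6 kb. Adipocyte-only regions had a macrophage region within 1 kb in 446 cases (4.11%) and within 10 kb in 2441 (22.5%), with a median gap of 42.3 kb. These gaps were not set against other positions. Adipocyte H3K9Ace lay at 69.0% of the macrophage-only regions within 1 kb of an adipocyte region, at 41.4% from 1 to 10 kb, 24.4% from 10 to 100 kb and 12.2% further away. PU.1 was at 30.7%, 33.1%, 30.5% and 26.6%, and C/EBPβ was at 27.6%, 26.6%, 24.4% and 21.9%. The median peak height was 7 in each step.

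Sharing varied between chromosomes. From the macrophage side it was lowest on chromosome 9, 39 of 809 regions, 4.82% (3.55 to 6.52), and chromosome 13, 5.71% (4.30 to 7.56), and highest on chromosome 8, 10.3% (8.43 to 12.6), and chromosome 17, 10.1% (8.21 to 12.4). From the adipocyte side chromosome 9 was lowest as well, 7.69% (5.61 to 10.5), and chromosome 10 highest, 14.6% (11.9 to 17.9). Chromosome 6 held 9.56% of the adipocyte and 5.97% of the macrophage regions, and 8.43% of the former were shared. The share of macrophage regions of height 9 or more was 18.4% on chromosome 9 and 17.1% on chromosome 8. The chromosomes were named for their values and not tested.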
